A study of Mus musculus with 10 samples.

Results

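The 6 genes Cd274, Pdcd1lg2, Cd80, Cd86, Cd40 and Lgals9 of the checkpoint and costimulatory ligand group were followed through 5 single-cell libraries of mouse melanoma. They were chosen by name, for what their proteins do, though with earlier results of these data known, and they are 6 of the 32285 genes in each count matrix. Each has 1 row there under its own Ensembl identifier.

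The libraries came from SW1 melanomas, a mouse melanoma line grown under the skin of female C3H/HeJ mice aged 4 to 6 weeks, and hold cells that were sorted for the leukocyte surface protein CD45. A single library was made before treatment (pretreatment day 0), and control and L-fuc libraries were made 7 and 21 days after mice began to drink plain water or water with 100 mM L-fucose (L-fuc), a dietary sugar. Per the labels, treatment began 10 days after injection, the pretreatment cohort held 3 mice, and the arms held 5 mice in one protocol and 6 in another; the dose is given as 100 mM in one protocol and 100 nM in the other. Every condition is 1 library and no label ties a cell barcode to a mouse, so differences between conditions have no replicate check and are given with 95% intervals that cover counting error only.

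T cells read costimulatory and inhibitory signals, besides antigen, from the cell that presents it. CD80 and CD86, encoded by Cd80 and Cd86, bind CD28 on the T cell and costimulate it, and the same ligands bind the inhibitory receptor CTLA-4 more tightly. PD-L1 and PD-L2, encoded by Cd274 and Pdcd1lg2, bind the inhibitory receptor PD-1 (Pdcd1); PD-L1 is made by many cell types under interferon-gamma, while PD-L2 is mainly known from macrophages and dendritic cells. CD40 (Cd40) is not a ligand itself but the receptor on antigen-presenting cells through which T cells, by CD40 ligand (Cd40lg), raise costimulation. Galectin-9 (Lgals9) is a sugar-binding lectin that has been described as a partner of TIM-3 (Havcr2).

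In the annotation of the same genome build (GENCODE vM21 on GRCm38, the build mm10 of the deposited counts), Cd274 lies on the plus strand at chr19:29367455-29388095 and Pdcd1lg2 just downstream of it on the same strand at chr19:29410919-29471161. Cd80 and Cd86 share chromosome 16, at chr16:38455561-38496335 on the plus strand and chr16:36603869-36666081 on the minus strand. Cd40 lies at chr2:165055627-165072948 (plus) and Lgals9 at chr11:78962974-78984946 (minus).

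The promoter windows of Cd274, Pdcd1lg2 and Lgals9 are shown because these genes were higher together in macrophages that carried interferon-induced chemokine transcripts, as described further on. Each window is the RefSeq promoter on GRCm38.p6, from 250 bases before to 50 bases after the start site, written on the gene's own strand, with every match to TTTCNNTTT, a core of the sites of interferon regulatory factors, in capitals. They lie at chr19:29367188-29367487 (Cd274, plus), chr19:29410669-29410968 (Pdcd1lg2, plus) and chr11:78984875-78985174 (Lgals9, minus).
Cd274: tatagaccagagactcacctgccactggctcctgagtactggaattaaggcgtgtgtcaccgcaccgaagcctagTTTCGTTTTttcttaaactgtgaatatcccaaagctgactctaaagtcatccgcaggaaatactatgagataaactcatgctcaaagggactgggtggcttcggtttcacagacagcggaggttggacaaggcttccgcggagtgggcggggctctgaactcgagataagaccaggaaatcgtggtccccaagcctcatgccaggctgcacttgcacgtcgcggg
Pdcd1lg2: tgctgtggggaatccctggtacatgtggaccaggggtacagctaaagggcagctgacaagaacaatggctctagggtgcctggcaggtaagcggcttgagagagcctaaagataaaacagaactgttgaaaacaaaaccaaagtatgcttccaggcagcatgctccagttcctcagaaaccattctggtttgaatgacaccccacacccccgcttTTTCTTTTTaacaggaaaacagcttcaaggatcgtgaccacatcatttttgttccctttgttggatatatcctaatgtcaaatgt
Lgals9: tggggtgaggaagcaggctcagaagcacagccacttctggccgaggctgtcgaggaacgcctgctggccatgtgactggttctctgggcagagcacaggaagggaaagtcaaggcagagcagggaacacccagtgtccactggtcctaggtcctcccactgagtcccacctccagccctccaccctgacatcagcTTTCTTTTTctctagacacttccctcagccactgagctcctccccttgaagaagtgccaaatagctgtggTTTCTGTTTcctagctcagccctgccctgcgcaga
The match began at position -175 from the start site in Cd274, at -35 in Pdcd1lg2, and at -55 and 15 in Lgals9. The Cd80 window (chr16:38458683-38458982, plus) held 1 match, at position 30. Both strands were searched, and 10.6% of 32851 RefSeq promoter windows of the same length held at least 1 match. The palindromic STAT core TTCNNNGAA was in 0 of the 4 windows, and in 8.3% of all windows; both motifs were chosen after the sequences had been seen, and a match is a description of these letters, not of a bound site. Promoters of Cd86 and Cd40 were not analysed here.

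Barcodes with at least 500 genes and at most 10% mitochondrial UMIs were kept, which left 1470 barcodes at pretreatment day 0, 17897 and 9034 in the control and L-fuc libraries of day 7, and 1573 and 1182 in those of day 21. A UMI, or unique molecular identifier, marks 1 captured transcript molecule; the kept barcodes held 14231519 to 114827373 UMIs a library, with medians of 2890.5 to 8201 UMIs a barcode. Levels are given in CPM, the gene's UMI count over all UMIs of the barcodes in question times 1000000. Apart from a ratio of Cd274 to Cd86 UMIs, levels of different genes are not compared with each other. The 4 classes came from fixed gates that use none of the 6 genes: macrophages (at least 10 UMIs of the complement genes C1qa, C1qb and C1qc together), barcodes with at least 2 of the 3 mature dendritic cell genes Ccr7, Fscn1 and Ccl22, other barcodes with Ptprc (the gene of CD45), and tumor cells with Sox10, a gene of the melanocyte lineage, and no Ptprc. Despite the CD45 sort, tumor cells were the largest class at day 7, with 8788 of the 17897 control barcodes and 2855 of the 9034 L-fuc barcodes, against 260 of 1470 before treatment and, at day 21, 472 of 1573 in control and 300 of 1182 in L-fuc.

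Markers of a second class were common in the day 7 libraries, and T-cell markers in pretreatment macrophages too. At least 2 of the T-cell genes Cd3d, Cd3e and Cd3g were found in 78 of 456 macrophages before treatment. At day 7 they were in 320 of 1772 in control and 435 of 2071 in L-fuc, and at day 21 in 11 of 788 and 7 of 411. Sox10 was found in 31.1% of control and 13.9% of L-fuc macrophages at day 7 and in 2.19% to 9.98% in the other libraries, and in 44.5% and 18.3% of the other Ptprc-positive barcodes at day 7 against 0.397% to 10.1% elsewhere. Pairs of libraries shared 2 to 222 barcode sequences, at most 2.73% of the smaller library. The part that these mixed barcodes play in the levels below was not tested directly; values without them are given beside the day 7 comparisons of L-fuc and control and for the Ccr7 gate.

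Macrophages carried Cd274, Cd86, Cd40 and Lgals9 at higher levels than other Ptprc-positive barcodes, and tumor cells carried all 6 genes at lower levels than either. In macrophages Cd274 stood at 105 CPM before treatment, 91.4 and 90.7 in the control and L-fuc libraries of day 7, and 133 and 129 in those of day 21. In the other Ptprc-positive barcodes the same libraries gave 79.4, 23.2, 40.8, 88.6 and 72.7 CPM, below macrophages in each library. With the 4 classes of all libraries in 1 edgeR quasi-likelihood fit and the library as a block, Cd274 was higher in macrophages by 1.18 on the log2 scale (SE 0.32, adjusted p = 0.0153).

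**Figure D1:**
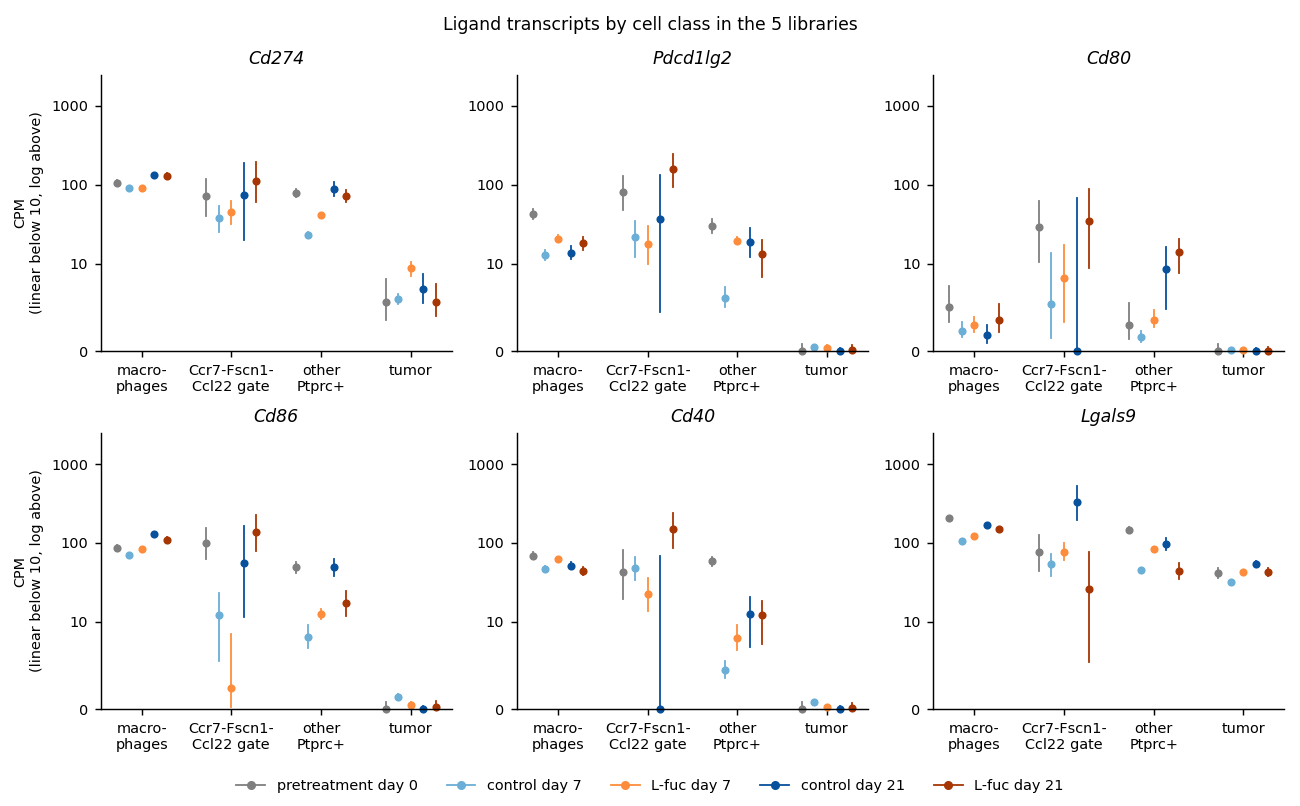
Level of each of the 6 genes (CPM, axis linear below 10 and logarithmic above) in the 4 gated classes, 1 point for each of the 5 libraries, with 95% exact Poisson intervals that cover counting error only. Macrophage points of Cd274 sit between 90.7 and 133 and its tumor-cell points between 5.57 and 9.53, and for Cd80, Cd86 and Cd40 tumor cells sit at or near 0.

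Cd86, the costimulatory ligand best known from macrophages and dendritic cells, was at 85.6, 69.6, 84.2, 129 and 110 CPM in macrophages, in the same order of libraries, against 48.9, 8.24, 12.6, 49.4 and 17.3 in other Ptprc-positive barcodes. Macrophages were higher in each library, and the difference was 2.37 (SE 0.67, edgeR adjusted p = 0.019). Cd40 ran at 68.6, 46.6, 62.6, 51.4 and 44.4 CPM in macrophages and at 58.2, 4.47, 8.1, 12.5 and 12.1 in the others, a difference of 2.20 (SE 0.59, adjusted p = 0.0152). Its pretreatment values were the closest pair, and the level of 58.2 in the pretreatment other Ptprc-positive barcodes lay inside the macrophage range. Lgals9 was at 205, 106, 123, 171 and 151 CPM in macrophages and at 146, 45.2, 84.3, 96.5 and 44.4 in the others, higher in macrophages in 5 of 5 libraries by 1.18 (SE 0.22, adjusted p = 0.00172), although the ranges overlapped.

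The 2 remaining ligands were not called between these classes. Pdcd1lg2 stood at 42.6, 13.0, 20.8, 13.8 and 18.1 CPM in macrophages and at 29.8, 6.11, 19.6, 18.8 and 13.3 in other Ptprc-positive barcodes, 0.58 apart (SE 0.41, adjusted p = 0.287). Cd80, the sparsest of the 6, lay between 1.82 and 5.09 CPM in macrophages and between 1.59 and 13.9 in the others (-0.43, SE 0.57, adjusted p = 0.6), and at day 21 both other Ptprc-positive values, 9.41 and 13.9, lay above every macrophage value. Thus 4 of 6 ligands were higher in macrophages and none was lower, where 16.1% of the 13661 genes tested were higher and 14.2% lower. Over the 5 libraries the macrophage means were 110 ± 20.2 (SD, n = 5) CPM for Cd274, 95.7 ± 23.6 for Cd86, 54.7 ± 10.5 for Cd40, 151 ± 39.1 for Lgals9, 21.7 ± 12.1 for Pdcd1lg2 and 3.15 ± 1.27 for Cd80. Without the L-fuc day 7 library the differences of Cd274, Cd86 and Cd40 were 1.10, 2.12 and 1.83 with adjusted p of 0.0501, 0.0977 and 0.11, and without the L-fuc day 21 library that of Cd86 was 2.35 (adjusted p = 0.0628). A fit without the library block gave 2.06 for Cd86 (adjusted p = 0.0606) and 1.68 for Cd40 (adjusted p = 0.0744).

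Tumor cells kept a low but steady Cd274 signal: 5.57 CPM before treatment, 5.95 and 9.53 at day 7 in control and L-fuc, and 7.07 and 5.64 at day 21. This was lower than in macrophages by 4.45 on the log2 scale and lower than in the other Ptprc-positive barcodes by 3.27 (edgeR adjusted p = 7.31e-07 and 1.25e-05). Lgals9 was the ligand whose tumor-cell level came closest to that of leukocytes, at 41.2, 32.4, 42.8, 54.8 and 42.5 CPM, yet it was still lower than in macrophages by 2.34 (adjusted p = 1.85e-06) and lower than in other Ptprc-positive barcodes by 1.16 (adjusted p = 0.000742). Pdcd1lg2, Cd80, Cd86 and Cd40 were each at or below 1.45 CPM in every tumor-cell sum, and were lower than in macrophages by 4.91 to 7.34. All 6 ligands were thus lower in tumor cells in both contrasts, against 35.7% of genes lower and 31.7% higher than in macrophages, and 31.6% lower and 25.1% higher than in other Ptprc-positive barcodes.

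Tumor-cell barcodes also carried some macrophage transcripts. The 9 macrophage markers summed to 155 to 516 CPM in tumor cells and to 15230 to 28404 in macrophages. In macrophages the number of Cd274 UMIs per Cd86 UMI was 1.23, 1.31, 1.08, 1.04 and 1.17 in the 5 libraries. In tumor cells it was 4.11, 17.1 and 20.5 in the day 7 libraries of control and L-fuc and the day 21 library of L-fuc, and the pretreatment and control day 21 tumor cells had 25 and 75 Cd274 UMIs with 0 Cd86 UMIs, which put the ratio above 6.29 and 19.8 at the lower end of the 95% interval. Each tumor-cell ratio, or its lower limit where Cd86 was at 0, was above that of the macrophages of the same library. Neutrophil-gated barcodes, described below, also held Cd274 with few or no Cd86 UMIs. The part of macrophage or neutrophil RNA in the tumor-cell levels was not tested.

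The share of barcodes with at least 1 UMI follows depth, so it was also counted after every barcode was thinned to 1000 UMIs. Unthinned, Cd274 was found in 39.0%, 32.8%, 31.5%, 40.1% and 42.1% of macrophages, and thinned in 8.87%, 7.97%, 7.49%, 11% and 8.58%. T-cell-gated barcodes, which served as the background type, gave thinned shares of 2.25%, 3.69%, 2.51%, 4.44% and 11.8%, and tumor cells 0%, 0.605%, 1.09%, 1.29% and 0.35%. In the L-fuc day 21 library the share among macrophages was therefore not above background, with 18 T-cell-gated barcodes in all. Over the 6 ligands and 5 libraries the 95% exact binomial interval of the macrophage share lay wholly above that of T-cell-gated barcodes in 9 of 30 cases. The same count was not made for all genes. This background is not free of macrophage transcripts. A C1q UMI was present in 30 of 223, 422 of 521, 389 of 760, 18 of 46 and 4 of 18 T-cell-gated barcodes.

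The gate on Ccr7, Fscn1 and Ccl22, genes of mature dendritic cells that migrate to lymph nodes, held 23, 87, 67, 4 and 5 barcodes. Its label went against the data at day 7: Sox10 was present in 56 of the 87 control and 42 of the 67 L-fuc barcodes (64.4% and 62.7%), and in 17.4% before treatment. Only the first 3 libraries had the 10 barcodes needed for the fit. The barcodes are therefore called the Ccr7 gate, and its values are given with and without those that carried Sox10.

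Whole, the gate showed Cd274 at 71.9, 37.7, 45.4, 73.8 and 113 CPM and Cd86 at 101, 12.1, 2.39, 55.3 and 139. In barcodes without Sox10, Cd274 stood at 109, 148, 116, 391 and 299 and Cd86 at 153, 41.3, 6.1, 293 and 368, whereas the Sox10-positive barcodes had Cd274 at 0, 5.23, 28.3, 0 and 0. Pdcd1lg2 without Sox10 stood at 124, 65, 85.5, 195 and 413 CPM, and Cd80 at 43.7, 23.6, 30.5, 0 and 91.9. Each of these Pdcd1lg2 values was above that of macrophages in the same library, as were 4 of the 5 Cd80 values. Cd40 was at 65.6, 213, 97.7, 0 and 391 CPM without Sox10. The Sox10-free sums are small, 19, 31, 25, 3 and 3 barcodes.

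**Figure D2:**
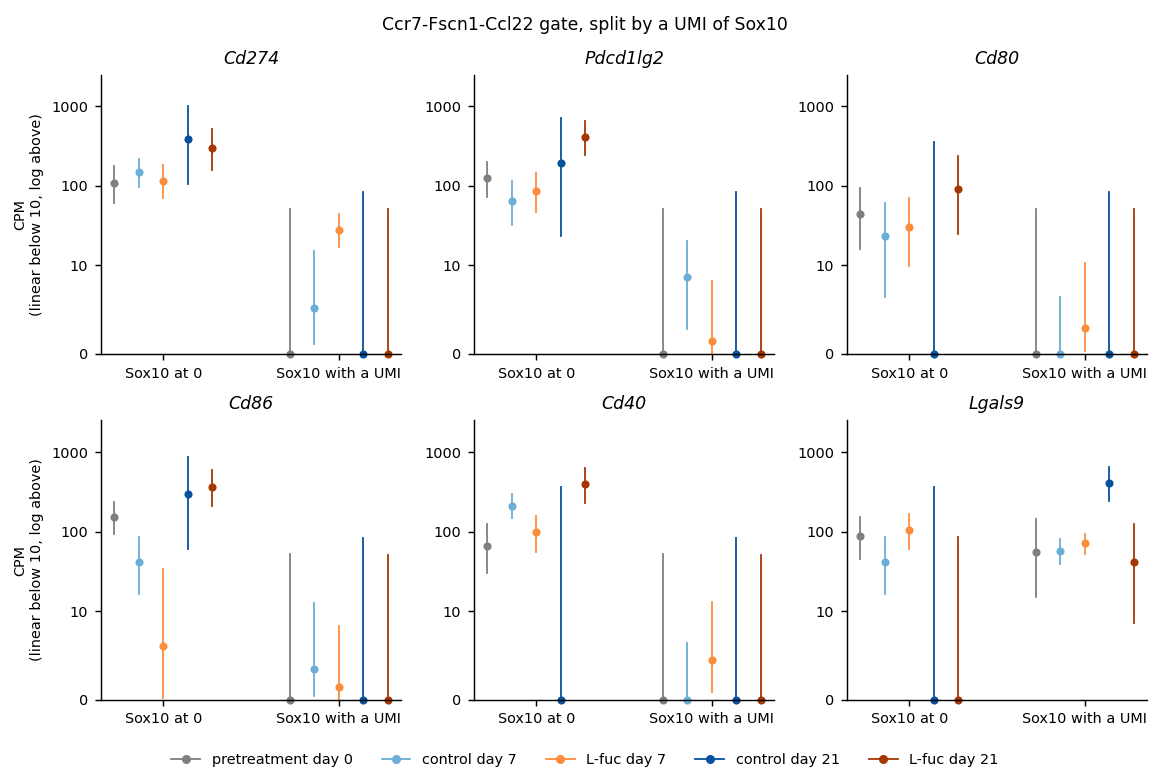
Levels of the 6 genes (CPM, axis linear below 10 and logarithmic above) in the Ccr7 gate, split into barcodes without and with Sox10, for each of the 5 libraries with 95% exact Poisson intervals. Cd274, Pdcd1lg2, Cd80 and Cd86 lie near 0 in most Sox10-positive sums, while Lgals9 does not.

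Against macrophages the whole Ccr7 gate was lower in Cd274 by 1.40 on the log2 scale (SE 0.44, edgeR adjusted p = 0.0429) and in Lgals9 by 1.46 (SE 0.29, adjusted p = 0.00548), and the other 4 ligands were not called, where 11.3% of genes were lower and 6.25% higher. The Cd274 call was lost without TMM (adjusted p = 0.0549), with the top 5% of barcodes by UMIs left out (0.121), with barcodes of both gates counted in the Ccr7 gate (0.242), and without the pretreatment, control day 7, L-fuc day 7 or control day 21 library (0.0694 to 0.165), and the Lgals9 call without L-fuc day 7 (adjusted p = 0.0533). Without the Sox10-positive barcodes the Cd274 difference was -0.04 (adjusted p = 0.981), and Cd80 was then higher by 3.18 (adjusted p = 0.0328). Lgals9 remained lower, at -1.38 (adjusted p = 0.0203). Against other Ptprc-positive barcodes 0 of 6 ligands were called, with or without Sox10-positive barcodes, although Cd40 was higher by 3.17 (adjusted p = 0.0389) with all barcodes that carried markers of another class left out. Of the 6, 0 had an unadjusted p under 0.05 in edgeR on the whole gate, and DESeq2 called 0 as well; 0.0439% of genes were higher and 0.00732% lower in that contrast.

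Dendritic cell maturation genes that the gate did not use were counted in the same contrast. Of the 16 on the list, 7 were higher than in macrophages and 0 lower, led by Cacnb3 (4.91, adjusted p = 0.00117), Il4i1, an amino acid oxidase (4.12, adjusted p = 0.00161), and the chemokine gene Ccl17 (4.01, adjusted p = 0.00272). The 5 marker genes Ccr7, Fscn1, Ccl22, Cacnb3 and Fabp3 summed to 2410 and 1630 CPM in the Sox10-free barcodes of control and L-fuc day 7, and to 415 and 410 in the Sox10-positive ones. Of these 5, Ccr7, Fscn1 and Ccl22 are the gate's own genes, so the sum is not independent of the gate. The sums also differ in depth: median UMIs a barcode were 3746 and 2569 without Sox10 and 8794.5 and 13925 with it. T-cell genes were also present in the former, where the 3 Cd3 genes summed to 862 and 1697 CPM.

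Within the other Ptprc-positive class, barcodes were further gated by 2 or more markers of a cell type. Neutrophil-gated barcodes (4, 21, 48, 18 and 8 in number) held the highest Cd274 level of any such group in 5 of 5 libraries: 700, 167, 411, 769 and 1271 CPM from 5, 10, 62, 41 and 25 UMIs. Relative to macrophages of the same library this was 6.67-fold (95% interval 2.16 to 15.7), 1.82-fold (0.872 to 3.36), 4.53-fold (3.45 to 5.83), 5.77-fold (4.11 to 7.88) and 9.81-fold (6.31 to 14.6), so the interval left out 1 in all but the control day 7 library. Their neutrophil markers, led by the calprotectin genes S100a8 and S100a9, summed to 11632 to 48485 CPM and their macrophage markers to 140 to 1467. Cd86 was 0 in 4 of the 5 neutrophil sums and 13.2 CPM in L-fuc day 7, and Cd40 was 0 in all but control day 7, where it was 50 CPM, 1.07-fold the macrophage level (95% interval 0.22 to 3.15). Few UMIs stand behind these zeros: Cd86 was below the macrophage level beyond counting error in the day 7 libraries and control day 21, with upper limits of 0.539 to 0.884, and Cd40 in L-fuc day 7 alone, at most 0.391-fold. Before treatment the upper limits were 6.06-fold for Cd86 and 7.56-fold for Cd40, so no difference was detectable there. Cd80, from 2, 1, 3, 3 and 4 UMIs, was above the macrophage level in each library, with wide intervals. Its ratio was 55-fold (95% interval 6.34 to 219) before treatment. At day 7 it was 7.16-fold (0.176 to 42.8) in control and 6.72-fold (1.34 to 20.7) in L-fuc. At day 21 it was 30.9-fold (5.7 to 111) and 57.2-fold (14.3 to 169).

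**Figure D3:**
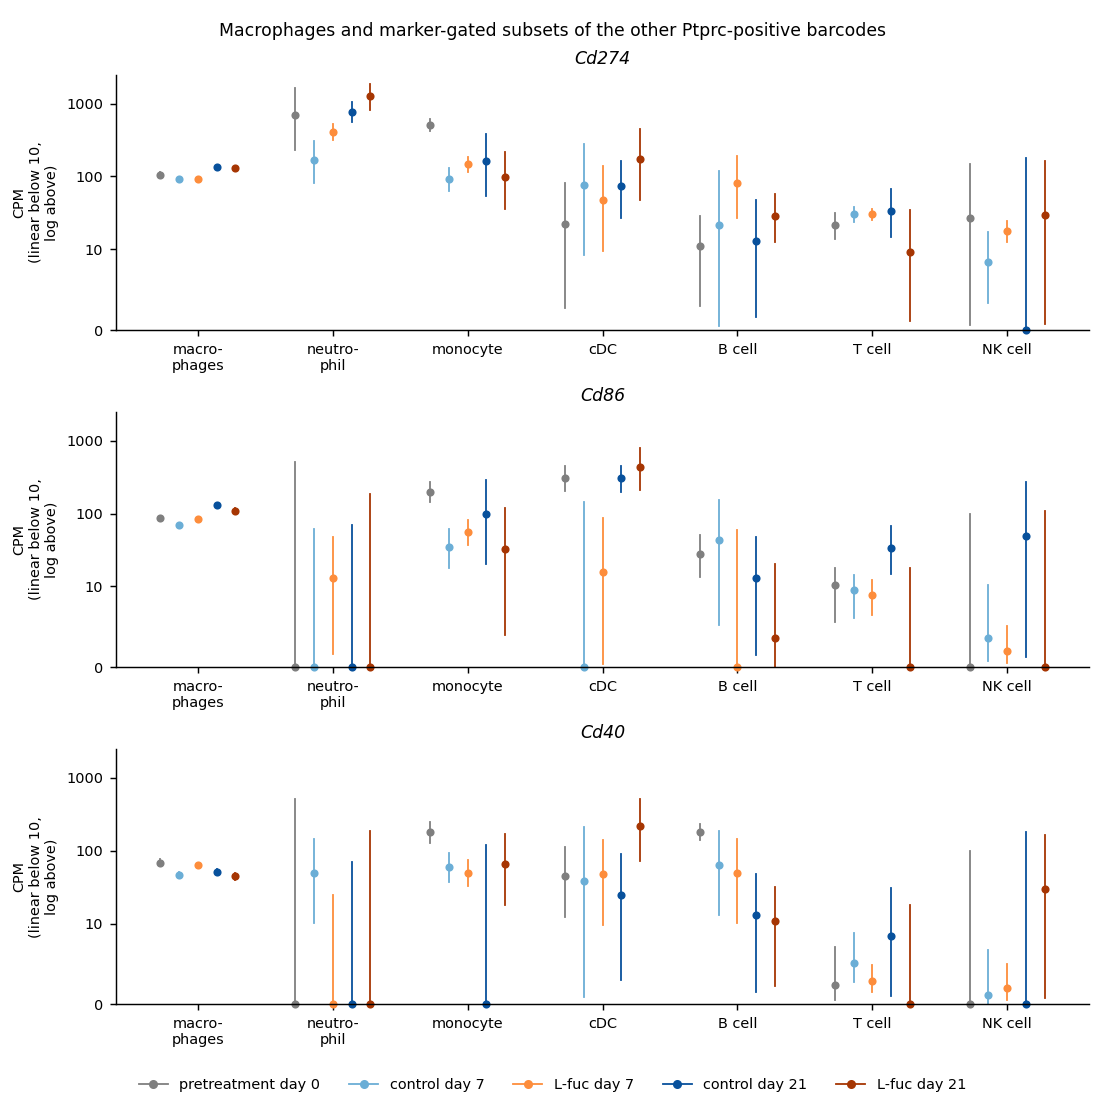
Levels of Cd274, Cd86 and Cd40 (CPM, axis linear below 10 and logarithmic above) in macrophages and in marker-gated subsets of the other Ptprc-positive barcodes, 1 point a library with 95% exact Poisson intervals. Neutrophil-gated points of Cd274 run from 167 to 1271, and B-cell-gated Cd40 reaches 183 before treatment.

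Monocyte-gated barcodes (24, 66, 81, 5 and 10) carried Cd274 at 510, 92.3, 148, 164 and 98 CPM, with Cd86 at 200, 34.6, 56.1, 98.4 and 32.7. The pretreatment sum stood furthest from macrophages, 4.86-fold higher in Cd274 (95% interval 3.91 to 5.99). Barcodes gated on conventional dendritic cell genes (9, 9, 9, 20 and 5) held Cd86 at 312, 0, 15.8, 308 and 438 CPM. This was 3.65-fold (95% interval 2.4 to 5.34), 2.4-fold (1.54 to 3.56) and 3.97-fold (1.9 to 7.35) the macrophage level before treatment and at day 21 (control, then L-fuc), while the day 7 sums held 0 and 1 Cd86 UMIs and their intervals, 0 to 2.04 and 0.00474 to 1.05, did not leave out 1.

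Cd40 was also high outside macrophages in the pretreatment library. The 79 B-cell-gated barcodes of that library gave 183 CPM, 74.9-fold the level in its T-cell-gated barcodes (95% interval 24.5 to 372), and the monocyte-gated ones were close to it at 181. Later libraries held 8 to 15 B-cell-gated barcodes, with Cd40 at 64, 48.9, 13.1 and 10.8 CPM. CD40 is a standard surface protein of B cells. The other Ptprc-positive class had its highest Cd40 of the 5 libraries before treatment. Of the 195 Cd40 UMIs there, 66 lay in B-cell-gated and 38 in monocyte-gated barcodes. T-cell-gated and conventional dendritic cell-gated barcodes held 3 and 4, and the rest lay in barcodes that met no marker gate or several. The part of each group in that level was not tested.

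T-cell-gated barcodes (223, 521, 760, 46 and 18) were not devoid of ligands. Pdcd1lg2 stood at 38.3, 13.9, 32.9, 59.3 and 43.7 CPM, which was 1.58-fold (95% interval 1.3 to 1.92), 4.31-fold (2.28 to 7.56) and 2.42-fold (1.08 to 4.76) the macrophage level with L-fuc at day 7 and in both day 21 libraries (control first), and 0.899-fold and 1.07-fold in the pretreatment and control day 7 libraries. Cd274 in the same barcodes was 21.2, 30.2, 30, 33.9 and 9.72 CPM, below the macrophage value in 5 of 5 libraries, and Cd40 was at most 8.47. The macrophage markers summed to 135, 968, 414, 275 and 58.3 CPM there, and their part in the Pdcd1lg2 level was not tested.

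Transcripts of the receptors of these ligands were found in T-cell-gated barcodes. Macrophage-gated barcodes held them too, those of Pdcd1, Ctla4, Cd28 and Cd40lg at lower levels in each library. Pdcd1, for one, stood at 10.7 to 39.2 CPM in macrophages. T-cell-gated barcodes had Pdcd1 at 284, 120, 213, 851 and 369 CPM, Ctla4 at 226, 105, 280, 796 and 530, and Cd28 at 128, 70.7, 147, 199 and 126. Cd40lg was at 61.1, 12.7, 56.8, 195 and 117 and Havcr2 at 37.5, 48.4, 57.2, 483 and 146. All 5 were highest in the control day 21 library. In macrophages Havcr2 stood at 80.5, 58.2, 58.7, 80.6 and 80.7 CPM in the same order of libraries. That was above the T-cell-gated level before treatment and at control day 7, close to it at L-fuc day 7, and below it at day 21. Of 17 receptors and partners tested, 13 were lower in macrophages than in other Ptprc-positive barcodes and 0 higher, led by Ctla4 (-2.76, adjusted p = 0.0125), the costimulatory receptor Icos (-2.68, adjusted p = 0.0138) and Cd40lg (-2.51, adjusted p = 0.0199), whereas Havcr2, which macrophages also carry, differed by 0.97 (adjusted p = 0.131).

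Other gene groups of the same pathways were counted in the macrophage contrast. Interferon-induced genes were higher in macrophages in 9 of 19 cases and lower in 0, with Cxcl9, a chemokine gene induced by interferon-gamma, at 3.95 (adjusted p = 0.000669). Of 20 other ligands tested, 6 were higher and 1 lower, among them Tnfsf15 (4.14, adjusted p = 0.0004) and Cd83 (2.30, adjusted p = 0.0351), while Cd200, an inhibitory ligand, was lower (-1.73, adjusted p = 0.000767). Genes of interferon-gamma signalling and PD-L1 control were higher in 3 of 16 cases and lower in 1, led by Socs3 (2.68, adjusted p = 7.73e-05) and the receptor chain Ifngr2 (1.88, adjusted p = 2.12e-05), and CD40 and NF-kB genes in 3 of 18 and 0, led by Bcl2a1b (2.30, adjusted p = 0.016). With 16.1% of all genes higher in macrophages, the shares of the last 2 groups were near the background. The median log2 difference was -2.12 for the receptors, 0.73 for interferon-induced genes, 0.54 for the other ligands, 0.38 for CD40 and NF-kB genes and 0.06 for PD-L1 control genes, beside 1.18 for the 6 ligands and -0.12 for all genes. In tumor cells against macrophages the same groups were mostly lower: 14 of 16 PD-L1 control genes, 18 of 18 CD40 and NF-kB genes and 12 of 20 other ligands. Another 4 of those 20 ligands were higher. Over all genes, 35.7% were lower and 31.7% higher in that contrast.

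Macrophages were then split by whether a UMI of Cxcl9 or Cxcl10, chemokine genes that interferon-gamma induces, was present after thinning to 1000 UMIs, so that each barcode was sorted at equal depth. The split gave 155, 527, 791, 253 and 142 macrophages with and 296, 1243, 1278, 520 and 266 without. The median UMIs of the unthinned barcodes still differed, at 9446, 6216, 5324, 7870 and 13379.5 with and 7822, 6368, 5935.5, 5311 and 5480.5 without, and the levels below are from the unthinned barcodes. Of the 6 ligands, 5 were higher in the chemokine-positive macrophages and 0 lower, where 4.26% of the 10812 genes tested were higher and 2.65% lower.

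Cd40, which had the largest fold difference of the 6, went from 53.2 to 98.3 CPM before treatment, from 36.8 to 70.5 and from 31.6 to 112 in control and L-fuc at day 7, and from 41 to 70.3 and from 32.1 to 64.5 at day 21. It was higher in 5 of 5 libraries, by 1.21 on the log2 scale (SE 0.15, edgeR adjusted p = 0.00101). Cd86 went from 69.9 to 116, 59.2 to 94.9, 48.7 to 141, 102 to 177 and 84 to 153 CPM, a difference of 1.01 (SE 0.13, adjusted p = 0.000981). For both costimulatory genes the widest gap was in the L-fuc day 7 library.

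Among the PD-1 ligands, Pdcd1lg2 went from 36.8 to 53.3, 10.1 to 20.2, 17.7 to 25.7, 12.3 to 16.6 and 14.3 to 24.2 CPM (0.73, SE 0.11, adjusted p = 0.0027). Cd274 went from 93.2 to 128, 81 to 117, 70.6 to 123, 126 to 147 and 122 to 142 (0.53, SE 0.10, adjusted p = 0.00976). Both were higher in 5 of 5 libraries. Lgals9 moved least, from 198 to 220, 99.5 to 121, 116 to 134, 162 to 187 and 144 to 163 (0.28, SE 0.06, adjusted p = 0.0231). Its call did not hold with markers of another class left out (0.18, adjusted p = 0.172), without TMM (0.19, adjusted p = 0.0687), without the library block (0.26, adjusted p = 1), or without the control day 7, L-fuc day 7 or control day 21 library (adjusted p = 0.0948, 0.0728 and 0.0525). Cd80 was higher in 4 of 5 libraries without passing the test (0.78, SE 0.32, adjusted p = 0.186). Of the 5 called genes, Cd274, Pdcd1lg2 and Lgals9 have TTTCNNTTT in the windows shown above. The windows of Cd86 and Cd40, which were also called, were not analysed here. Cd80, which was not called, has the motif too, so among the windows examined it does not separate called from uncalled genes.

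**Figure D4:**
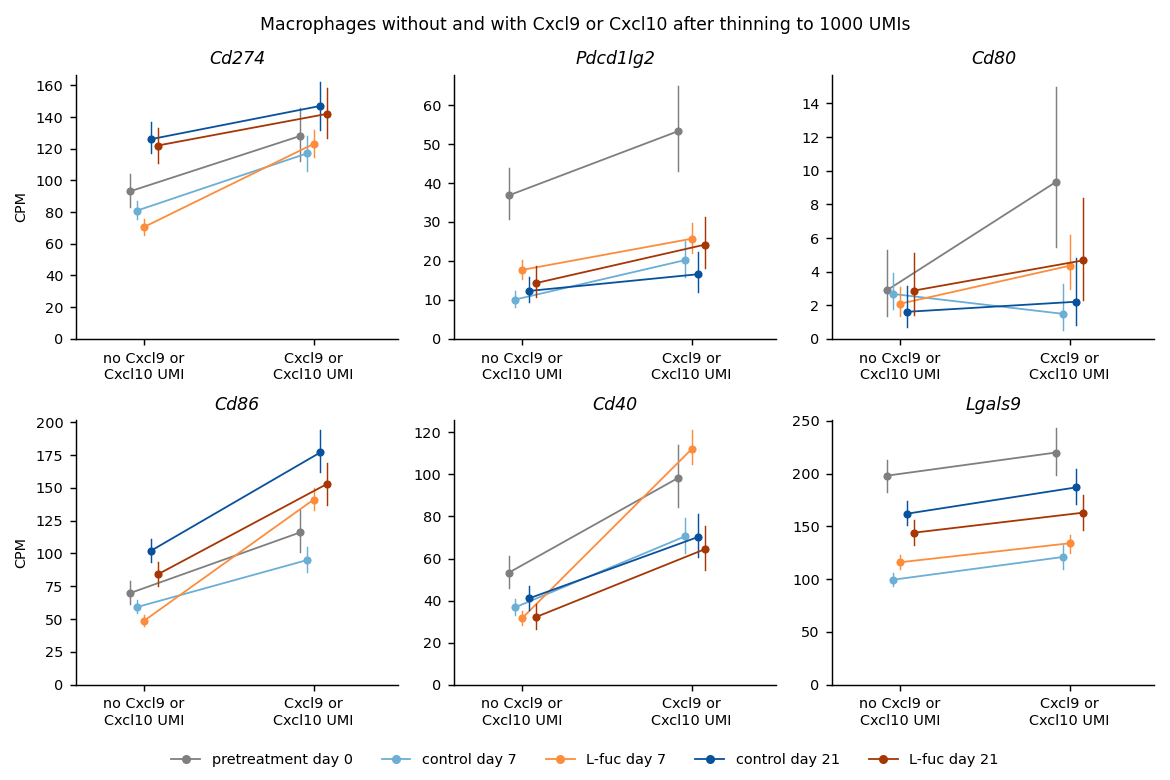
Levels of the 6 genes (CPM) in macrophages without and with a thinned UMI of Cxcl9 or Cxcl10, joined by a line within each of the 5 libraries, with 95% exact Poisson intervals. Lines climb in every library for Cd274, Pdcd1lg2, Cd86, Cd40 and Lgals9, and in 4 of 5 for Cd80.

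These macrophages differed in the surrounding pathways as well. Of 17 interferon-induced genes tested (the chemokines of the split left out), 12 were higher and 0 lower, led by Gbp5 (1.55, adjusted p = 1.5e-05), Rsad2 (1.44, adjusted p = 2.38e-05) and Iigp1 (1.43, adjusted p = 8.5e-05). CD40 and NF-kB genes were higher in 8 of 18 cases and lower in 0, with the feedback inhibitor genes Tnfaip3 (0.76, adjusted p = 0.000217) and Nfkbia (0.60, adjusted p = 0.000191) in front, and PD-L1 control genes in 5 of 16 and 0, with Socs1 (0.84, adjusted p = 0.00114) and Irf1, an interferon regulatory factor (0.65, adjusted p = 0.000484). Receptors were lower in 8 of 15 cases and higher in 1, among them Cd28 (-1.13, adjusted p = 0.0402), Ctla4 (-1.12, adjusted p = 0.0196) and Pdcd1 (-1.05, adjusted p = 0.0022). The medians were 0.62, 0.38, 0.12 and -0.92 for these groups in the same order, beside 0.75 for the 6 ligands and -0.02 for all genes. T-cell transcripts moved along with this: 12.3%, 16.7%, 14.7%, 0.395% and 1.41% of the chemokine-positive macrophages had 2 or more Cd3 genes, against 19.9%, 18.7%, 25%, 1.92% and 1.88% of the rest. Sox10 was in 1.29%, 26.8%, 9.1%, 2.77% and 9.86% of the former and 2.7%, 33%, 16.9%, 3.27% and 9.77% of the latter. With barcodes carrying markers of another class left out, 4 of the 5 ligands were still called and Lgals9 was not.

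Splitting the same barcodes on unthinned counts left 3 of the 6 ligands called, Cd274 and Pdcd1lg2 having adjusted p of 0.0751 and 0.0645, and a fit without the library block called 0. Per barcode, in thinned L-fuc day 7 macrophages, Cd274 was found in 14.7% (95% exact binomial interval 9.22% to 21.8%) of those with a Cd86 UMI against 6.98% of those without, and in 14.6% (8.01% to 23.7%) of those with a Cd40 UMI against 7.17%. In control day 7 macrophages the corresponding shares were 8.8% (4.48% to 15.2%) against 7.9% and 6.94% (2.29% to 15.5%) against 8.01%. For Cd86 the other libraries gave 9.3% against 8.82% before treatment, and 11.6% against 10.9% and 13.2% against 8.11% in control and L-fuc at day 21. For Cd40 they gave 3.85% against 9.18%, 25% (10.7% to 44.9%) against 10.5%, and 20% against 8.29%, in the same order. Barcodes are not replicates, and the gap between libraries was not tested.

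Mice fed L-fuc and control mice were compared within each class and day. In macrophages at day 7 no ligand reached a 2-fold difference on summed UMIs. Cd274 was 0.993-fold of control (95% interval 0.922 to 1.07) and so within counting error, while Pdcd1lg2 was 1.59-fold (1.33 to 1.91), Cd40 1.34-fold (1.22 to 1.48), Cd86 1.21-fold (1.12 to 1.31) and Lgals9 1.16-fold (1.09 to 1.24); Cd80 was 1.27-fold with an interval of 0.807 to 2.03. The median of all genes was -0.14 on the log2 scale, and 3.58% of genes were past 2-fold higher and 4.77% lower. Sox10-positive macrophages were 31.1% of control and 13.9% of L-fuc macrophages, and when barcodes with another class's markers were left out, Pdcd1lg2 was 0.32 on the log2 scale from 0.67 and Cd40 was 0.63 from 0.42. With every barcode thinned to 1000 UMIs, Pdcd1lg2 was 1.19, past 2-fold. For Cd86 the direction depended on how barcodes were weighted: 0.27 on summed UMIs, -0.11 with every barcode thinned to 1000 UMIs and -0.08 as the mean of per-barcode levels.

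At day 21 the macrophage values of L-fuc and control lay close together for Cd274, at 0.971-fold. Pdcd1lg2 was 1.31-fold (95% interval 0.999 to 1.73) and Cd80 1.95-fold (0.956 to 4.13). Cd86 was 0.858-fold (0.777 to 0.947), Cd40 0.864-fold (0.738 to 1.01) and Lgals9 0.884-fold (0.812 to 0.962). None was past 2-fold, with 4.71% of genes higher and 1.13% lower and a median of 0.03 on the log2 scale.

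**Figure D5:**
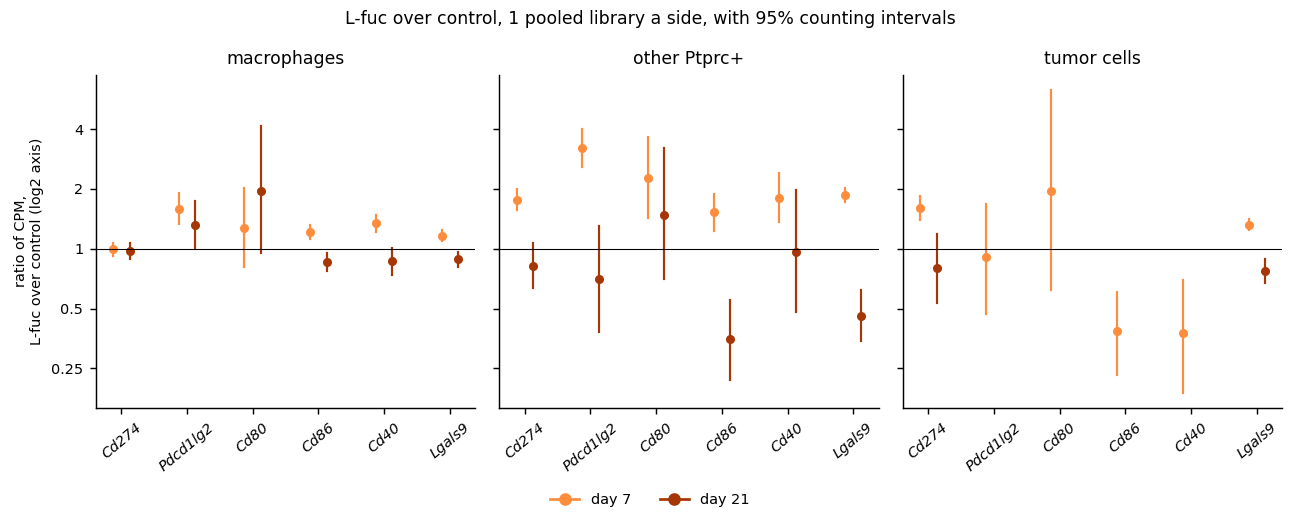
L-fuc over control as a ratio of summed levels (log2 axis, line at 1) for the 6 genes in macrophages, other Ptprc-positive barcodes and tumor cells, at day 7 and day 21, with 95% intervals that cover counting error only and 1 library behind each arm. Cd274 sits near 1 in macrophages on both days, and Cd86 and Lgals9 lie above 1 at day 7 and below 1 at day 21 in macrophages and other Ptprc-positive barcodes.

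Other Ptprc-positive barcodes showed more of a difference at day 7. Pdcd1lg2 was 3.21-fold (95% interval 2.58 to 4.01) and Cd80 2.26-fold (1.43 to 3.65) the control level, the 2 ligands past 2-fold, and Lgals9 was 1.86-fold (1.71 to 2.03), Cd40 1.81-fold (1.37 to 2.41), Cd274 1.76-fold (1.56 to 1.99) and Cd86 1.53-fold (1.23 to 1.89). Here 10.4% of genes were past 2-fold higher and 8.42% lower, with a median of -0.15. The make-up of the class differed too: T-cell-gated barcodes were 521 of 3686 in control and 760 of 2608 in L-fuc, Sox10-positive ones 44.5% and 18.3%, and T-cell, neutrophil and red-cell markers summed to 324, 227 and 1231 CPM in control and 1071, 660 and 4773 in L-fuc. With barcodes carrying another class's markers left out, the log2 ratios went from 0.81 to 0.17 for Cd274, from 0.61 to -0.16 for Cd86 and from 0.85 to -0.11 for Cd40, and from 1.67 to 0.99 for Pdcd1lg2 and 0.90 to 0.70 for Lgals9. A change in level within a cell type and a change in the mix of cells cannot be told apart in these sums.

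At day 21 the same class, of 202 and 199 barcodes, gave lower Cd86 (0.35-fold, 95% interval 0.219 to 0.55) and Lgals9 (0.461-fold, 0.342 to 0.618) with L-fuc, and Cd274 at 0.821-fold. Those 2 ligands were past 2-fold, where 11% of genes were lower and 2.81% higher and the median was -0.29. As a mean of per-barcode levels Lgals9 was -0.45 on the log2 scale, from -1.11, and Cd274 was -1.09, from -0.29. T-cell markers summed to 1128 CPM in control and 439 in L-fuc.

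Tumor cells at day 7 had 1.6-fold more Cd274 with L-fuc (95% interval 1.39 to 1.84; 5.95 against 9.53 CPM) and 1.32-fold more Lgals9 (1.24 to 1.41). Both stayed under 2-fold, and Cd86 and Cd40, at or below 1.45 CPM in these barcodes, were 0.384-fold and 0.376-fold; 2.02% of genes were past 2-fold higher and 4.9% lower. Interferon-induced genes in the same barcodes were past 2-fold higher in 8 of 19 cases and lower in 0, with a median log2 ratio of 0.83 against -0.04 over all genes. With barcodes of another class's markers left out, Cd274 was at 0.48 and Lgals9 at 0.45 on the log2 scale, from 0.68 and 0.40. The Cd86 ratio, -1.33 on that scale, was -0.16 as a mean of per-barcode levels and -0.62 thinned to 1000 UMIs, and that of Cd40 was -0.18 thinned. At day 21 the tumor-cell ratios were 0.797 for Cd274 (0.531 to 1.18) and 0.776 for Lgals9 (0.674 to 0.892), with 2.55% of genes higher and 1.07% lower.

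In the Ccr7 gate at day 7, Cd86 was 0.197-fold (95% interval 0.0207 to 0.953) and Cd40 0.469-fold (0.254 to 0.839) of control in L-fuc, past 2-fold, where 3.05% of genes were higher and 2.46% lower. These rest on 87 and 67 barcodes, most of them Sox10-positive, and for Cd86 on 9 UMIs in control and 2 in L-fuc. In the Sox10-free barcodes Cd40 was at 213 CPM in control and 97.7 in L-fuc, from 36 and 16 UMIs. Cd86 was there at 41.3 and 6.1 CPM, from 7 and 1 UMIs. The Cd40 ratio was 0.11 on the log2 scale as a mean of per-barcode levels and -0.15 with markers of another class left out. For Cd86 the log2 ratio was -0.03 with barcodes of both gates counted in the Ccr7 gate. The day 21 gates held 4 and 5 barcodes and are not compared.

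The day of harvest was compared in control mice, again with 1 library a day. In macrophages from pretreatment to control day 7, Pdcd1lg2 went to 0.306-fold (95% interval 0.25 to 0.374), Cd80 to 0.457-fold, Lgals9 to 0.515-fold, Cd40 to 0.68-fold, Cd86 to 0.813-fold and Cd274 to 0.87-fold, with 2 ligands past 2-fold lower, 3.06% of genes lower and 24.3% higher, and a median of 0.37 on the log2 scale. From control day 7 to day 21, Cd86 went to 1.85-fold (1.69 to 2.02), Lgals9 to 1.62-fold and Cd274 to 1.46-fold (1.34 to 1.59), while Cd40 and Pdcd1lg2 were at 1.1-fold and 1.06-fold, with 4.36% of genes past 2-fold higher and 18% lower. In other Ptprc-positive barcodes 5 ligands were past 2-fold lower at control day 7 than before treatment, Cd40 at 0.0768-fold, and 6 were past 2-fold higher at control day 21 than at day 7, Cd86 at 6-fold and Cd274 at 3.82-fold. For that class 12.5% of genes were lower and 27.4% higher in the first step, and 12% higher and 13% lower in the second. Both steps share the control day 7 library, whose class was 44.5% Sox10-positive. With barcodes of another class's markers left out, the first step was -0.80 on the log2 scale for Cd274, under 2-fold, and -2.30 for Cd40 (from -3.69), and in the second step Pdcd1lg2, Cd40 and Lgals9 were 0.73, 0.44 and 0.55, under 2-fold. In macrophages the same alternative gave 0.10 for Cd274, 0.04 for Cd86 and -0.83 for Lgals9 in the first step, and 0.21, 0.43 and 0.53 in the second.

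In the Ccr7 gate, Cd86 went to 0.12-fold (95% interval 0.0486 to 0.274), Cd80 to 0.187-fold (0.0389 to 0.79) and Pdcd1lg2 to 0.264-fold (0.125 to 0.557) from pretreatment to control day 7, as the Sox10-positive share went from 17.4% to 64.4%. Without Sox10-positive barcodes the log2 ratio was -1.76 for Cd86 (from -2.97), 0.40 for Cd274 (from -0.97) and 1.58 for Cd40 (from 0.06). In that contrast 5.59% of genes were past 2-fold lower and 10.4% higher. In tumor cells Cd274 stayed within counting error in both steps, at 1.07-fold (0.713 to 1.67) and 1.19-fold (0.918 to 1.52). Of the 3 control and pretreatment libraries, UMIs of the myeloid ligands were seen in that of day 7: Cd86 had 0, 102 and 0 UMIs before treatment, at control day 7 and at control day 21, Cd40 had 0, 59 and 0, and Pdcd1lg2 had 0, 32 and 0. The tumor-cell sums differ in depth, with 4490328, 70463279 and 10601370 UMIs. In the first step the lower 95% limit of the ratio was 1.73 for Cd86, 0.988 for Cd40 and 0.522 for Pdcd1lg2. The pretreatment zeros of Cd40 and Pdcd1lg2 were thus within counting error. Past 2-fold were Cd86 in the first step, where 7.6% of genes were higher and 1.66% lower, and all 3 in the second, where 5.87% were lower and 5.37% higher. The macrophage markers in tumor cells were at 155, 516 and 396 CPM in these 3 libraries, and their part was not tested. Thinned to 1000 UMIs, Cd86 was -0.84 on the log2 scale in the first step and -0.01 in the second. Sums with 0 Cd86 UMIs stay at 0 when thinned. These 2 values therefore follow the pseudocount of 1 UMI and the unequal depth, and give no direction.

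Over the 18 sums of library and class with at least 10 barcodes, the genes whose levels ran most like each ligand were named as a description, from 11924 genes and on log2(CPM + 10). Cd274 ran with Cd83 (r = 0.987), Snx20 (0.985) and Adap1 (0.984), and Cd86 with Lmo2 (0.981), Slc16a3 (0.972) and Zc3h12a (0.972). For Pdcd1lg2 the nearest were Sri (0.953), Samsn1 (0.948) and AA467197 (0.938), and for Cd80 Cbfa2t3 (0.952), Tmem123 (0.924) and Tbc1d4 (0.904). Cd40 ran with Rnf19b (0.944), Arl5c (0.935) and Basp1 (0.935), and Lgals9 with Capzb (0.948), Snapc5 (0.943) and Arpc2 (0.937). The sums share libraries and differ in depth, so these values describe the order of classes and are not tests.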

How the data were processed

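Cells sorted for CD45 from SW1 tumors were captured on the 10X Chromium and 5 gene expression libraries were used here; the receptor (VDJ) libraries and the breast tumor model were not analysed here. The values are raw UMI counts per gene and barcode as deposited by the authors, on mm10; the matrix headers name Cell Ranger 7.1.0 and the submitters' processing notes Cell Ranger 3.0 and Seurat 4.0. The labels and the study's methods differ on the days of growth, the number of mice, the dose and the sequencer.

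Barcodes were gated as described, with those in both the macrophage and Ccr7 gates (0 to 26 a library) counted as macrophages; 107 to 3564 barcodes a library fell in no gate. Doublets were not called here. The study's methods describe doublet calling and removal in its own analysis of the counts, and removal before deposit was not stated. An alternative left out barcodes with markers of another class. UMIs were summed per library and class, and sums of at least 10 barcodes (18 sums, 10 residual degrees of freedom) were fitted with edgeR 4.0.16 (R 4.3.3; TMM, filterByExpr, quasi-likelihood, library as a block), with Benjamini-Hochberg adjustment over all genes and a threshold of 0.05; DESeq2 1.42.0 was an alternative. The chemokine split was fitted likewise on 10 sums. The libraries serve as replicates of a contrast between classes although they differ in day and treatment. Between libraries, ratios of summed levels carry exact conditional 95% intervals, and a gene counted as past 2-fold when its interval left out 1 and it had at least 10 UMIs in both libraries together; log2 ratios used a pseudocount of 1 UMI. Gate genes were left out of the background shares. The edgeR step was tested on simulated counts.

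The 6 genes, the gates and the gene lists were chosen with earlier results of these data known. Named from each list were the 3 genes with the largest change among those called in a contrast, and for each ligand the 3 genes with the highest correlation (at least 500 UMIs in all); examples in the text are taken from these. Alternatives covered barcode filters, gate limits, thinning, per-barcode means, normalization, filters, the pseudocount, each library left out and the block; leaving Sox10-positive barcodes out of the Ccr7 gate was chosen after seeing the data.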

Additional observations from a re-analysis of the deposited data

Results flagged for a closer look

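Several L-fuc over control log2 ratios pointed in opposite directions at day 7 and day 21, and the difference was not tested, since each day has 1 library an arm. In macrophages Cd86 was at 0.27 at day 7 and -0.22 at day 21, and Lgals9 at 0.22 and -0.18. In other Ptprc-positive barcodes Cd86 was at 0.61 and -1.49, and Lgals9 at 0.90 and -1.11. In tumor cells Lgals9 was at 0.40 and -0.36. The day 7 side of Cd86 changed sign with the processing, to -0.11 with thinned barcodes and -0.08 as a per-barcode mean in macrophages, and to -0.16 in other Ptprc-positive barcodes with those carrying another class's markers left out; Lgals9 in macrophages at day 21 was 0.05 when the top 5% of barcodes by UMIs were left out.

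Barcodes in no gate, which the comparisons did not use, also carried the ligands at day 7. L-fuc over control, with 1433 and 3564 such barcodes, gave 2.4-fold Cd274 (95% interval 1.93 to 2.97), 3.05-fold Pdcd1lg2 (1.91 to 4.92), 1.63-fold Cd86 (1.13 to 2.34), 2.32-fold Cd40 (1.55 to 3.48) and 1.88-fold Lgals9 (1.63 to 2.18), while Cd80 was 1.25-fold (0.455 to 3.19). At day 21, with 267 and 107 such barcodes, Cd274 lay the other way at 0.346-fold (0.201 to 0.579), and the intervals of the other 5 ligands did not leave out 1.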

How the results depend on the processing

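Of 30 ligand and class contrasts 18 were called, 16 to 18 in each alternative with all libraries and 13 to 17 with 1 library left out, the fewest without L-fuc day 7. All 6 ligands were called in each tumor-cell contrast, where calls were common. There 35.7% of genes were lower and 31.7% higher than in macrophages, and 31.6% and 25.1% than in other Ptprc-positive barcodes. Of 78 ligand ratios between libraries 28 were past 2-fold. The count was 18 with markers of another class left out and 12 with barcodes thinned to 1000 UMIs, where fewer ligands had enough UMIs. The cause of the rest of the drop was not tested. Over all genes, 1.07% to 27.4% were past 2-fold in 1 direction, depending on the comparison and class. The 5 of 6 ligands called in chemokine-positive macrophages were 3 with the split on unthinned counts, 0 without the library block, and 4 to 5 with 1 library left out. The 9 of 30 macrophage shares above those of T-cell-gated barcodes were 10 at 2000 UMIs. No replicate numbers pair the libraries beyond the block: each condition is 1 library.

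Among the class contrasts, directions turned mainly in the Ccr7 gate, and the cause was not tested. Against macrophages, Pdcd1lg2 was -0.13 with 20 C1q UMIs, -0.03 with barcodes of both gates put in the Ccr7 gate and -0.18 without pretreatment day 0; Cd274 was 0.07 and Cd40 1.11 with markers of another class left out, and Cd40 0.61 with Sox10-positive barcodes left out. Against other Ptprc-positive barcodes, Cd274, Cd86 and Lgals9 were 0.34, 0.83 and 0.18 with barcodes of both gates put in the Ccr7 gate; Cd274 and Cd86 were 1.14 and 1.76 with markers of another class left out, and 1.18 and 1.26 with Sox10-positive barcodes left out. Cd86 was there also 0.02 with the top 5% of UMIs left out, 0.04 without TMM, 0.44 without L-fuc day 7 and 0.11 without control day 21, and Lgals9 0.00 without pretreatment day 0. With 1 library left out, Cd80 between macrophages and other Ptprc-positive barcodes ran from -0.76 to 0.07 (without L-fuc day 21), Pdcd1lg2 in the Ccr7 gate against macrophages from -0.18 to 0.50, and, against other Ptprc-positive barcodes, Cd86 from -1.27 to 0.44 and Lgals9 from -0.40 to 0.00. Among log2 ratios past 2-fold, the sign turned for Cd40 in the day 7 Ccr7 gate (0.11 as a per-barcode mean). In tumor cells it differed for Cd86 of control day 7 over pretreatment (-0.84 thinned) and Cd40 of control day 21 over day 7 (0.43 thinned). Each of these tumor-cell ratios had a side with 0 UMIs, thinned or not. Their thinned sign thus came from the pseudocount and is not a change of direction. Ratios under 2-fold turned too: counting all, the sign differed in 40 of 812 recomputed log2 ratios, 17 in the Ccr7 gate, 12 in macrophages, 8 in tumor cells and 3 in other Ptprc-positive barcodes. All calls of tumor cells against macrophages and against other Ptprc-positive barcodes kept their direction and side of the threshold in the alternatives run. Depth limits Cd80, and every value of the day 21 Ccr7 gate.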
